A study of Mus musculus with 12 samples.

Results

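The 36 genes described here drive or mark the cell cycle in mouse liver: 14 act in G1 or at entry into S phase, 10 in S phase and 12 in G2 or mitosis. The rule takes them by gene symbol, and they are 36 of the 24062 genes in the deposited count tables. Liver RNA was sequenced from 14-week-old male mice (mixed 129SvEV-C57BL/6) carrying floxed Nr5a2, the gene of the nuclear receptor LRH-1. Mice labelled knockout had received AAV8-Cre, an adeno-associated virus that delivers the Cre recombinase, and the series' design text gives AAV8-eGFP for the controls, so all groups share the floxed gene and a virus. The promoter that drives Cre is not given in the sources used here, and the whole liver was sampled. Each of the 12 libraries is labelled standard diet (SD; 3 controls, 3 knockouts) or high-fat diet (HFD, diet D12492, for 6 weeks; 4 controls, 2 knockouts). The study asked what LRH-1 does in adult liver on each diet, and the comparisons below are knockout against control within each diet, the mean of both, the difference between them, and diet within each genotype.

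Totals ran from 2371167 to 3404570 counts in the SD libraries and from 7463792 to 10875478 in the HFD libraries. Over the whole Nr5a2 gene, libraries labelled knockout had no lower level on SD (94.6 to 99.9 CPM, counts scaled to the size of each library, against 74.7 to 85.6 in controls), and on HFD the groups overlapped (68.9 and 84.3 CPM against 64.2 to 76.9), and a count over the whole gene does not show whether a floxed exon was lost. Nr0b2, which encodes SHP and is a known target of LRH-1, had 0 counts in 4 of 5 knockout libraries and 3 counts in the other, against 27 to 108 counts in the controls. The summed level of 8 hepatocyte markers was 107796 to 137247 CPM in SD controls and 101911 to 154092 in SD knockouts. On HFD it was 104442 to 109627 CPM in controls and 123621 and 169594 in knockouts, so these groups did not overlap. Alb was at 76948 to 84104 CPM in HFD controls and 98927 and 141562 in HFD knockouts. By fold change, 3 of the 8 markers were higher in HFD knockouts and 5 lower. HFD control 1 stood apart from the other HFD controls on the second principal component of all tested genes (-3.34 against 11.8 to 18.8, with the HFD knockouts at -24.4 and -20.6), so results that rest on it are given with and without it.

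A cell enters the cycle when D-type cyclins with CDK4 or CDK6 phosphorylate the retinoblastoma protein, which frees E2F factors to switch on genes of DNA synthesis. MCM proteins are loaded at replication origins in G1 and unwind DNA in S phase, and a later wave of genes, many with CHR and CCAAT promoter elements, carries the cell through mitosis. Most hepatocytes of an adult liver rest outside the cycle and can return to it after injury. In the gut, LRH-1 is known to promote expression of cyclins D1 and E1.

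Promoter letters known for these waves were searched in the members. For 27 of the 36 genes RefSeq (GRCm38.p6) gave 31 windows of 250 bases upstream of a start. Windows are printed for Cdkn2c and Mcm7, which passed the test over both diets, and for Mki67 and Top2a, whose levels lay far apart in the 2 HFD knockout libraries; capitals mark the E2F letters (the form TTCCCGC, its variant TTGGCGC, the variant TTCGCGC, and the variant TTGCCGC) and the CHR letters TTTGAA on either strand. RefSeq gave 2 windows each for Cdkn2c and Mcm7, and 1 is printed: for Cdkn2c the one with an E2F match (chr4:109666757-109667006; the other has none), and for Mcm7, where both have one, chr5:138171884-138172133. The window of Mki67 is chr7:135716380-135716629 and that of Top2a is chr11:99024190-99024439; all 4 genes are on the minus strand.
Cdkn2c: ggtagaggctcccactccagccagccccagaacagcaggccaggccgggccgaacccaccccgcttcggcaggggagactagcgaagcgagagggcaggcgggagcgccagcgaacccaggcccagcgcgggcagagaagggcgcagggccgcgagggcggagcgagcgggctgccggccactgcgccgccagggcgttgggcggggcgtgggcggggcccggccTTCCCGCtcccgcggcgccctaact
Mcm7: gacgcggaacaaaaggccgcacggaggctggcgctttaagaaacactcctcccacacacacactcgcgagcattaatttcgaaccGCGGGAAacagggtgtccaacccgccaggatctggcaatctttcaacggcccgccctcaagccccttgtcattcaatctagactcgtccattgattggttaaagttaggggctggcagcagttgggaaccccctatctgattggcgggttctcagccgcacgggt
Mki67: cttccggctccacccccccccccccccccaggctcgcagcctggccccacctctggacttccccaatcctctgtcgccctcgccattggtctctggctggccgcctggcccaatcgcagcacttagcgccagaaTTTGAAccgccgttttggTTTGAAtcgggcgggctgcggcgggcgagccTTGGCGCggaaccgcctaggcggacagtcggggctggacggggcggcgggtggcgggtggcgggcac
Top2a: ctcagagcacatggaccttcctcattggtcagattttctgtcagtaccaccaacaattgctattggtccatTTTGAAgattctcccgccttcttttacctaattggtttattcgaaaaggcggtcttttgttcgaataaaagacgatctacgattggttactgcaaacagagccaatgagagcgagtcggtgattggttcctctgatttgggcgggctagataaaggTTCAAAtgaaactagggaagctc
An E2F match lay in 6 of 10 windows of S phase genes (60.0%), 2 of 12 of G1 genes and 2 of 9 of G2/M genes, against 7.89% of 32851 windows of all genes. A CHR match lay in 4 of 9 windows of G2/M genes, 1 of 10 of S phase genes and 0 of 12 of G1 genes, against 16.0% of all windows. CCAAT, which on the opposite strand can share letters with TTGGCGC, was found in 8 of 9 windows of G2/M genes and 9 of 10 of S phase genes, against 3 of 12 of G1 genes and 33.8% of all windows. The letters AAGGTCA, a half-site bound by LRH-1, were in 1 of 31 member windows (Ccnd3) and in 4.08% of all windows. A match describes the letters of these windows and nothing about binding.

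Of the 36 genes, 28 passed the filter on low counts: 13 of 14 G1 genes, all 10 S phase genes and 5 of 12 G2/M genes. Knockout against control was tested with edgeR's quasi-likelihood test over 12015 genes, with Benjamini-Hochberg adjusted p under 0.05 as the threshold. On SD, 1 of the 28 rose (Ccnd1) and 0 fell, while 4.38% of all tested genes passed in either direction, 1.44% higher and 2.94% lower. Of the 28, 5 had an unadjusted p under 0.05 on SD, beside 17.6% of all genes. On HFD, 0 of 28 passed with edgeR (7 at an unadjusted p under 0.05) and 0 with DESeq2, while 2.70% of all tested genes passed (1.04% higher, 1.66% lower) and 14.0% had an unadjusted p under 0.05. Over the mean of both diets, 3 of 28 rose, namely Ccnd1, Cdkn2c and Mcm7, and 0 fell, beside 8.36% of all genes in either direction, 3.00% higher and 5.36% lower; 7 members had an unadjusted p under 0.05, beside 21.5% of all genes. The knockout effect on HFD minus that on SD passed for 0 of 28 with edgeR (1 at an unadjusted p under 0.05, beside 7.58% of all genes) and 0 with DESeq2. Over all genes, edgeR called 0% for this difference and DESeq2 called 30 genes. The median log2 fold change of the 28 was 0.30 on SD and 0.22 on HFD, beside 0.00 and -0.01 for all tested genes.

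**Figure D1:**
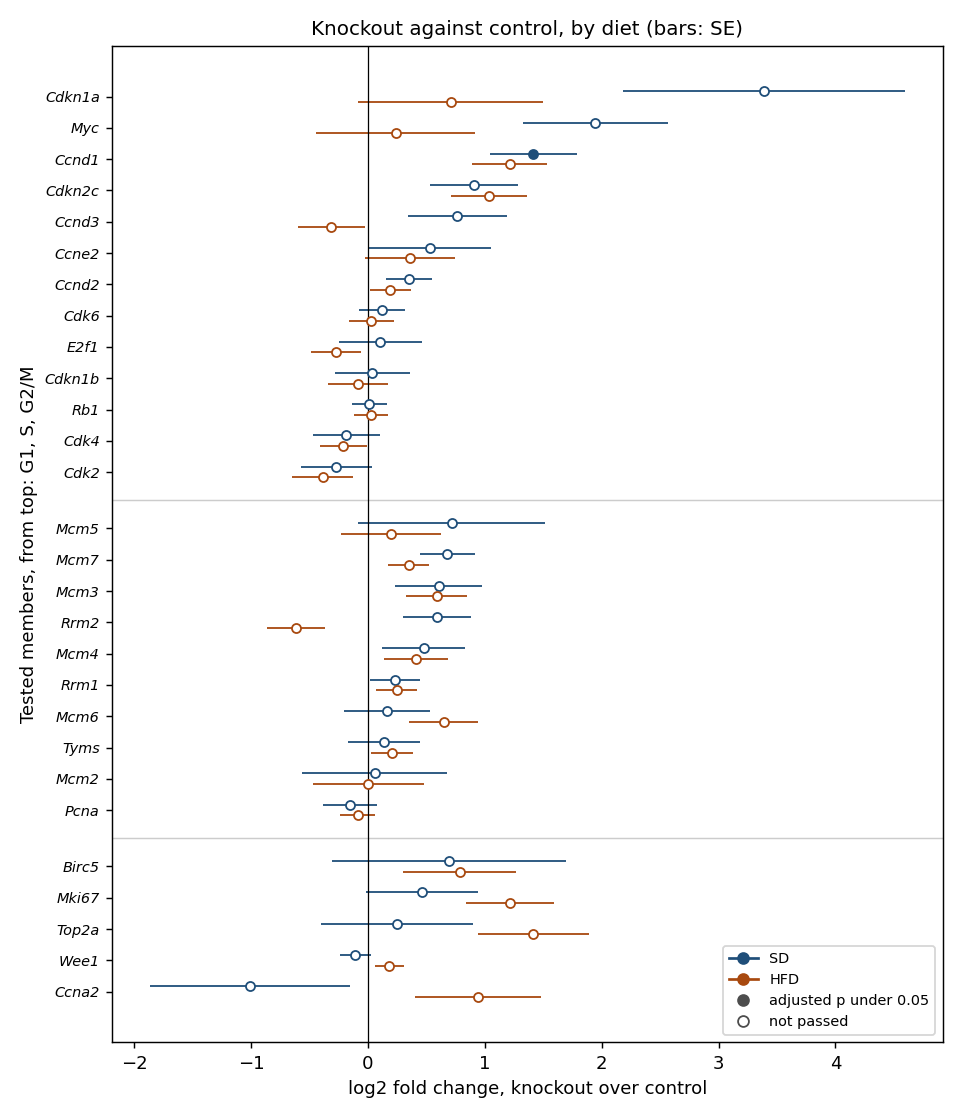
log2 fold change of knockout over control (x axis) for the 28 tested genes (y axis; G1, S and G2/M from the top), on SD (blue) and HFD (brown), with bars of 1 SE. Filled points passed the edgeR test; Ccnd1 on SD, at 1.42, is the filled one, and Cdkn1a on SD, at 3.39, has the longest bar (SE 1.20).

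Among G1 genes, Ccnd1, which encodes the cyclin D1 that activates CDK4 and CDK6, was higher in every knockout library than in any control of its diet. Its level on SD was 16.4, 27.7 and 23.8 CPM in controls and 42.6, 67.1 and 72.0 CPM in knockouts. On HFD it was 49.3, 36.8, 31.2 and 13.1 CPM in controls and 67.5 and 84.8 CPM in knockouts. The groups did not overlap on either diet, and among the HFD controls control 1 was highest and control 4 lowest. The means were 22.6 ± 5.74 (± gives the standard deviation throughout, n = 3) and 60.6 ± 15.7 CPM (n = 3) on SD, and 32.6 ± 15.0 (n = 4) and 76.2 ± 12.2 CPM (n = 2) on HFD. The log2 fold change was 1.42 (SE 0.37, adjusted p = 0.0415 by edgeR, 2.67-fold) on SD and 1.21 (SE 0.32, adjusted p = 0.0582, 2.32-fold) on HFD. The mean over both diets was 1.32 (SE 0.25, adjusted p = 0.00322), higher in 5 of 5 knockout libraries, and it passed under all 18 alternatives run. The call on SD held under 11 of 19 alternatives, with adjusted p up to 0.154; it was lost when SD control 1, 2 or 3, SD knockout 2 or 3, HFD control 2 or 3, or HFD knockout 1 was left out. The HFD effect minus the SD effect was -0.20 (95% interval from its SE -1.18 to 0.78, adjusted p = 0.970). The exon model of Ccnd1 shares 1100 bases with Oraov1 on the opposite strand; Oraov1 itself had a log2 fold change of -0.09 over both diets (adjusted p = 0.828), and whether counting used strand is not given in the sources used here.

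Cdkn2c encodes p18, an inhibitor of CDK4 and CDK6. Its level was 3.90, 2.01 and 3.35 CPM in SD controls and 3.99, 4.80 and 8.69 CPM in SD knockouts. HFD libraries stood at 2.26, 1.98, 1.60 and 1.82 CPM in controls and 4.16 and 3.79 CPM in knockouts. Knockouts lay above controls on both diets, with SD control 1 and SD knockout 1 close to each other. The log2 fold change was 0.91 (SE 0.38, adjusted p = 0.220) on SD, 1.03 (SE 0.33, adjusted p = 0.126) on HFD and 0.97 (SE 0.25, adjusted p = 0.0246 by edgeR) over both. The last call rested on 5 to 34 counts a library and held under 12 of 18 alternatives; it was lost without SD control 2, SD control 3, SD knockout 3, HFD knockout 1 or HFD knockout 2, and with the replicate number as a block. Ccnd1, Cdkn2c and Mcm7 were the only members whose groups did not overlap, with knockouts higher, on both diets, as did 2.60% of all tested genes; 0 members lay lower on both, beside 4.43%. Counted by diet, groups did not overlap with knockouts higher in 5 members on SD (10.3% of all genes) and 7 on HFD (10.3%), and with knockouts lower in 1 on SD (12.3%) and 2 on HFD (11.9%).

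**Figure D2:**
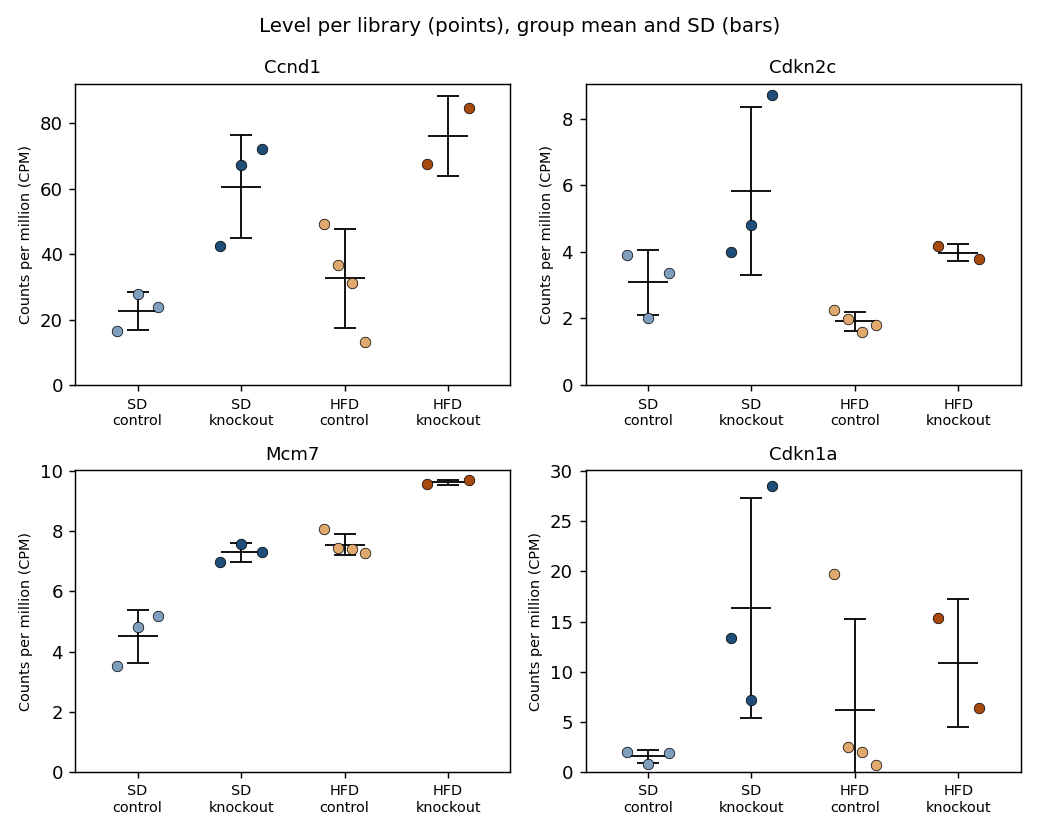
Level in CPM (y axis, from 0) in each library (points) by group (x axis) for Ccnd1, Cdkn2c, Mcm7 and Cdkn1a, with group mean and standard deviation (bars; the lower bar of Cdkn1a in HFD controls is cut at 0). The knockout points lie above the control points of the same diet except for Cdkn1a, where HFD control 1 is at 19.7 CPM.

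Cdkn1a, which encodes the CDK inhibitor p21 and is a classic target of p53, did not pass on either diet. Its level was 1.95, 0.80 and 1.83 CPM in SD controls and 13.3, 7.19 and 28.5 CPM in SD knockouts. In HFD libraries it was 19.7, 2.48, 1.94 and 0.65 CPM in controls and 15.4 and 6.35 CPM in knockouts. On SD the groups did not overlap; on HFD they overlapped through HFD control 1 alone. The log2 fold change was 3.39 (SE 1.20, adjusted p = 0.141 by edgeR) on SD, 0.71 (SE 0.79, adjusted p = 0.778) on HFD and 2.05 (SE 0.73, adjusted p = 0.105) over both. Without HFD control 1 it passed in all 3, at 3.39 (adjusted p = 0.00732), 2.65 (adjusted p = 0.00927) and 3.02 (adjusted p = 0.000307). Without HFD knockout 1 the HFD value was -0.05. In HFD control 1 the summed levels of 6 cholangiocyte, 6 T cell and 8 Kupffer cell markers were 105, 13.7 and 387 CPM. Those of 5 B cell, 8 stellate cell and 6 endothelial markers were 7.79, 407 and 238 CPM. All of these sums were the highest of the 4 HFD controls, while those of hepatocyte, neutrophil and erythroid markers were not. Their part in the Cdkn1a value was not tested.

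Of 20 other p53 target genes listed, 16 were tested. On SD 0 passed, with a median log2 fold change of 0.23, and 4 had an unadjusted p under 0.05 by edgeR, beside 17.6% of all genes. On HFD 1 fell and 0 rose, with a median of -0.17, and 6 had an unadjusted p under 0.05, beside 14.0%. The one that fell was Plk3, a stress-responsive polo-like kinase, at -2.07 (SE 0.42, adjusted p = 0.0141 by edgeR). Over both diets Plk3 (-1.77, adjusted p = 0.00240) and Perp (-0.33, adjusted p = 0.0167) fell and Plk2 rose (0.43, adjusted p = 0.0472). Mdm2, the inhibitor of p53 that p53 itself induces, was at 86.5 ± 4.95 CPM (n = 3) in SD controls and 98.1 ± 8.82 CPM (n = 3) in SD knockouts (log2 fold change 0.18, adjusted p = 0.425), and at 71.2 ± 6.20 (n = 4) and 70.0 ± 0.727 CPM (n = 2) on HFD.

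Myc, the growth-promoting transcription factor, varied widely between SD libraries and did not pass. It stood at 9.75, 70.2 and 10.1 CPM in SD controls and at 127, 154 and 57.4 CPM in SD knockouts. With HFD the level was 8.51, 4.71, 7.31 and 22.8 CPM in controls and 12.8 and 12.5 CPM in knockouts. SD control 2 was above the lowest SD knockout, and HFD control 4 alone of the HFD controls was above the HFD knockouts, so the groups overlapped on both diets. The log2 fold change was 1.95 (SE 0.62, adjusted p = 0.0945 by edgeR) on SD, 0.24 (adjusted p = 0.930) on HFD and 1.09 (adjusted p = 0.173) over both. Without SD control 2 the SD value was 3.50 (adjusted p = 0.00520), and the value over both diets was 1.87 (adjusted p = 0.00877).

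None of the kinases Cdk2, Cdk4 and Cdk6, nor Rb1 and Cdkn1b, passed the test on either diet. Cdk6, a partner of the D-type cyclins, was at 44.7 ± 6.84 CPM (n = 3) in SD controls and 48.7 ± 4.88 (n = 3) in SD knockouts, a log2 difference of 0.12 (95% interval -0.26 to 0.51). Rb1, which encodes the retinoblastoma protein, differed by 0.01 (-0.28 to 0.30) on SD and 0.03 (-0.25 to 0.31) on HFD. Cdkn1b, which encodes the inhibitor p27, differed by 0.04 (-0.59 to 0.66) on SD and -0.08 (-0.59 to 0.43) on HFD. Cdk4 differed by -0.18 and -0.21 and Cdk2, the partner of cyclins E and A, by -0.27 and -0.39, all with adjusted p of 0.574 or more. E2f1, the activator freed from the retinoblastoma protein, was at 0.11 on SD and -0.27 on HFD. The other cyclins gave no call either: Ccnd2 was at 0.35 and 0.19, Ccnd3 at 0.76 and -0.31, and Ccne2 at 0.53 and 0.36 on SD and HFD. Ccne1 was under the filter, with 8 and 11 summed counts in SD controls and knockouts and 16 and 17 on HFD. Scaled to library size, knockout over control was 1.37 (95% interval 0.501 to 3.92, counting error only) on SD and 2.33 (1.11 to 4.94) on HFD.

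Summed over the 14 G1 genes, the level per library was 159, 217 and 163 CPM in SD controls and 323, 353 and 307 CPM in SD knockouts. For HFD the values were 201, 169, 152 and 160 CPM in controls and 225 and 216 CPM in knockouts. The sums did not overlap on either diet. Of the SD difference of 148 CPM between the mean sums, Myc, which was not called, made 82.8, Ccnd1 38.0 and Cdkn1a 14.8 CPM, and Ccnd1 made 43.6 of the 49.9 CPM on HFD. The ratio of the mean sums was 1.82 on SD and 1.29 on HFD.

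**Figure D3:**
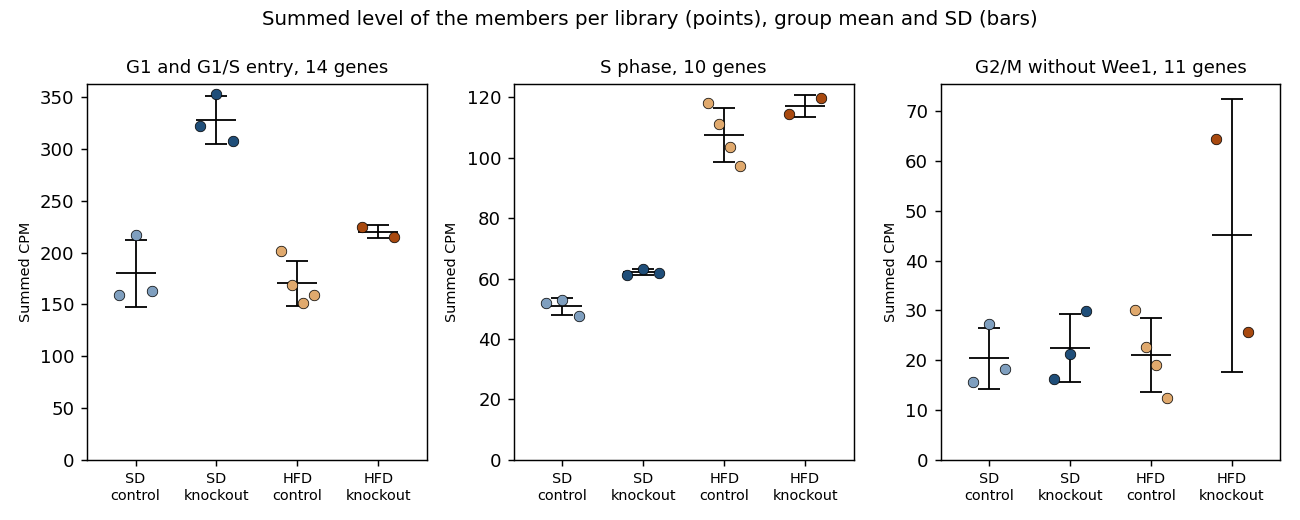
Summed level in CPM (y axis, from 0) of the G1 genes, the S phase genes and the G2/M genes without Wee1 in each library (points) by group (x axis), with group mean and standard deviation (bars). G1 sums are higher in knockouts on both diets, S phase sums are higher on HFD than on SD in both genotypes, and the G2/M sum without Wee1 of HFD knockout 1, at 64.5 CPM, is above those of the other libraries.

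Among S phase genes, Mcm7, a subunit of the MCM helicase, was higher in every knockout library than in any control of its diet. It was 3.51, 4.82 and 5.18 CPM in SD controls and 6.99, 7.59 and 7.30 CPM in SD knockouts. The HFD values were 8.06, 7.44, 7.43 and 7.27 CPM in controls and 9.57 and 9.69 CPM in knockouts. The libraries of each group lay close together, and the SD knockouts were level with the HFD controls. The log2 fold change was 0.68 (SE 0.24, adjusted p = 0.187) on SD, 0.35 (SE 0.17, adjusted p = 0.395) on HFD and 0.51 (SE 0.15, adjusted p = 0.0416 by edgeR) over both. That call held under 3 of 18 alternatives (RLE scaling, library totals, and without HFD control 1) and was lost when any other single library was left out and with DESeq2 (adjusted p = 0.118). Mcm7 shares exon bases with Ap4m1 and Cops6 on the opposite strand, which stood at 0.09 (adjusted p = 0.936) and -0.31 (adjusted p = 0.0518) over both diets, and it has a pseudogene copy, so its counts are uncertain to that extent. The same limit holds for other members with such copies, among them Tyms (4), Rrm2 (2), Pcna, Mcm4, Mcm6 and Mki67 (1 each). Further members share exon bases on the opposite strand, among them Cdk4 (641 with Tspan31) and Rb1 (488 with Rcbtb2).

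The other helicase subunits lay mostly above 0 without passing. Mcm3 was at 1.95, 2.81 and 2.74 CPM in SD controls and 2.66, 4.40 and 4.52 CPM in SD knockouts, and at 3.71, 4.34, 2.97 and 2.99 CPM in HFD controls against 5.69 and 4.90 CPM in HFD knockouts. Its log2 fold change over both diets was 0.60 (SE 0.23, adjusted p = 0.130). Mcm4 was at 3.12, 6.02 and 6.10 CPM in SD controls and 6.32, 5.99 and 9.04 CPM in SD knockouts, and at 8.88, 6.82, 5.94 and 4.15 CPM in HFD controls against 9.29 and 8.13 CPM in HFD knockouts. The groups of Mcm4 overlapped on both diets, and its value over both was 0.45 (SE 0.22, adjusted p = 0.271). Mcm6 (0.41), Mcm5 (0.46) and Mcm2 (0.03) had adjusted p of 0.358 or more over both diets. In all, 9 of 10 S phase genes were above 0 on SD and 8 of 10 on HFD, with medians of 0.35 and 0.23; 6005 of the 12015 tested genes were above 0 on SD and 5869 on HFD.

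Rrm1 and Rrm2 encode the subunits of ribonucleotide reductase, which makes the building blocks of DNA. Rrm1 was at 10.5, 11.2 and 9.75 CPM in SD controls and 15.0, 12.4 and 9.39 CPM in SD knockouts, and at 12.05, 14.0, 11.4 and 10.1 CPM in HFD controls against 13.9 and 14.4 CPM in HFD knockouts. Its groups overlapped on both diets (log2 fold change over both 0.24, SE 0.14, adjusted p = 0.352). Rrm2 was 7.02, 6.02 and 3.66 CPM in SD controls against 9.32, 8.39 and 6.96 CPM in their knockouts, and 7.88, 7.31, 8.11 and 5.45 CPM in HFD controls against 4.99 and 4.46 CPM. It is described because its values stood on opposite sides of 0, at 0.59 (SE 0.29, adjusted p = 0.312) on SD and -0.61 (SE 0.25, adjusted p = 0.258) on HFD, and was chosen after these were seen. The difference between diets was -1.20 (SE 0.38, unadjusted p = 0.00645, adjusted p = 0.482 by edgeR), so it failed the correction. Pcna, the sliding clamp of DNA polymerase, differed by -0.15 (-0.60 to 0.29) on SD and -0.09 (-0.38 to 0.20) on HFD, and Tyms, which makes thymidylate, by 0.14 (-0.47 to 0.74) and 0.21 (-0.14 to 0.55). The sum over the 10 genes was 50.8 ± 2.87 CPM (n = 3) in SD controls and 62.1 ± 0.959 (n = 3) in SD knockouts, and 108 ± 9.06 (n = 4) and 117 ± 3.77 (n = 2) on HFD.

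Most G2/M genes were near the limit of detection. Wee1, the kinase that holds CDK1 inactive and is also a clock-controlled gene, had the highest level of them, at 38.5 to 53.8 CPM over all libraries. Per kilobase of exon, Wee1 had 13.2 CPM in SD controls against 0.938 for Mki67 and 0.470 for Top2a. Wee1 was at 42.1, 44.6 and 48.5 CPM in SD controls and 38.9, 42.4 and 44.5 CPM in SD knockouts, and at 45.2, 41.4, 38.5 and 40.9 CPM in HFD controls against 53.8 and 40.7 CPM in HFD knockouts. Its log2 fold change was -0.11 (SE 0.13) on SD, 0.18 (SE 0.13) on HFD and 0.04 (SE 0.09, adjusted p = 0.875) over both.

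Mki67 and Top2a, which encode the proliferation antigen Ki-67 and topoisomerase II alpha, were set apart by HFD knockout 1. Mki67 was 7.02, 11.2 and 10.1 CPM in SD controls and 10.7, 12.8 and 15.6 CPM in SD knockouts. Under HFD it reached 13.8, 9.92, 7.20 and 5.32 CPM in controls, 33.3 CPM in knockout 1 and 9.80 CPM in knockout 2. Knockout 2 lay within the range of the controls, so the groups overlapped. The log2 fold change was 0.46 (SE 0.48, adjusted p = 0.695) on SD, 1.21 (SE 0.38, adjusted p = 0.116 by edgeR) on HFD and 0.84 (SE 0.31, adjusted p = 0.115) over both. On HFD it was 0.10 without HFD knockout 1, and it passed at 1.86 (adjusted p = 0.00932) without HFD knockout 2 and at 1.51 (adjusted p = 0.0331) without HFD control 1. Top2a was 2.34, 7.63 and 2.74 CPM in SD controls against 3.00, 5.19 and 6.61 CPM in their knockouts, and 5.80, 3.97, 2.63 and 1.56 CPM in HFD controls against 14.7 and 4.68 CPM. Its groups overlapped on both diets, with a log2 fold change of 0.25 (SE 0.65, adjusted p = 0.903) on SD, 1.42 (SE 0.48, adjusted p = 0.154) on HFD and 0.83 (SE 0.40, adjusted p = 0.252) over both; on HFD it was 0.40 (adjusted p = 0.931) without HFD knockout 1, and it passed without HFD control 1, at 1.81 (adjusted p = 0.0476).

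**Figure D4:**
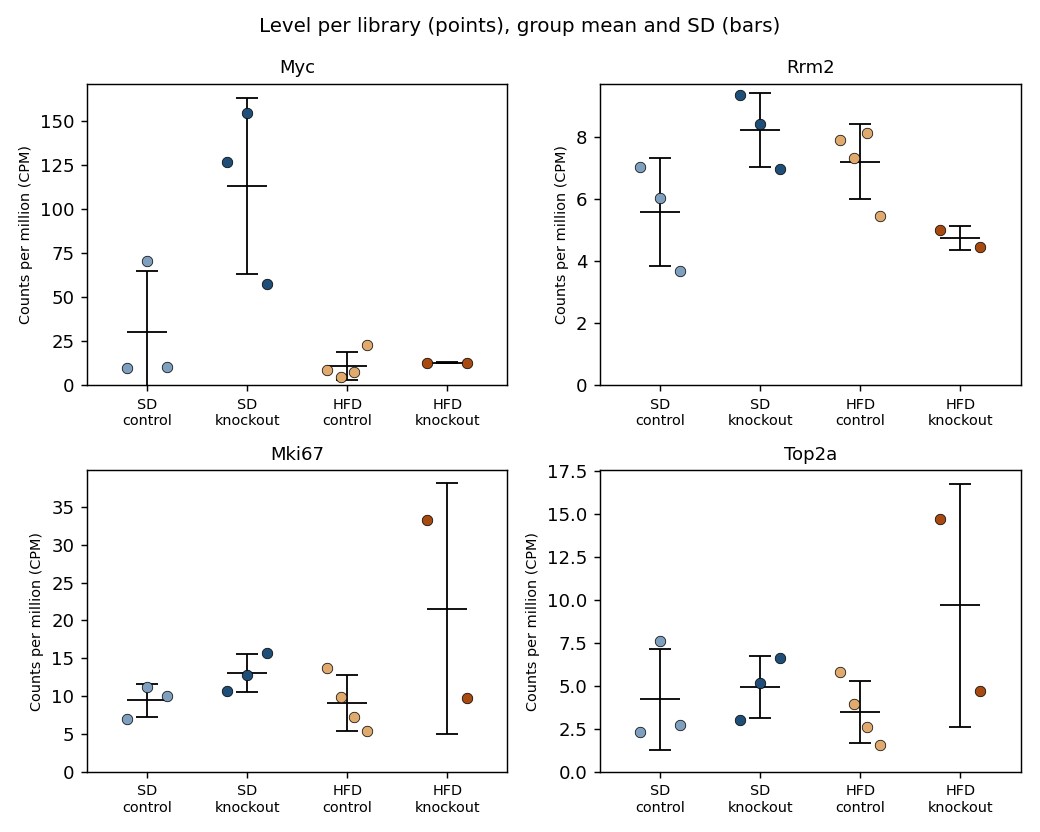
Level in CPM (y axis, from 0) in each library (points) by group (x axis) for Myc, Rrm2, Mki67 and Top2a, with group mean and standard deviation (bars, cut at 0 for Myc in SD controls). SD control 2 is high for Myc at 70.2 CPM, and HFD knockout 1 is high for Mki67 at 33.3 and Top2a at 14.7 CPM.

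Birc5, which encodes survivin of the chromosomal passenger complex, was 1.56, 0.80 and 0 CPM in SD controls against 0.33, 0.40 and 2.78 CPM in their knockouts, and 3.80, 1.36, 3.66 and 2.60 CPM in HFD controls against 5.69 and 4.34 CPM. The HFD groups did not overlap, yet the value over both diets was 0.74 (SE 0.56, adjusted p = 0.505). Ccna2, the cyclin A of S and G2, was at -1.01 (SE 0.85, adjusted p = 0.610) on SD and 0.95 (SE 0.54, adjusted p = 0.480) on HFD. The remaining 7 G2/M genes were under the filter: Ccnb1 and Ccnb2, which encode the B cyclins of mitosis, the kinases Bub1, Aurka, Aurkb and Plk1, and Cdc20, the activator of the anaphase-promoting complex. Together they held 33 and 20 counts in the 3 controls and 3 knockouts on SD, and 145 and 89 in the 4 and 2 on HFD. Aurka had 30 counts in HFD controls and 25 in HFD knockouts, a ratio of 1.83 (95% interval 1.03 to 3.22), and 12 and 8 on SD, a ratio of 0.663 (0.235 to 1.76). The HFD ratio was 1.69 (0.895 to 3.15) for Ccnb1, 0.764 (0.296 to 1.77) for Ccnb2, 1.26 (0.563 to 2.67) for Bub1, 1.01 (0.466 to 2.08) for Aurkb, 1.60 (0.558 to 4.36) for Plk1 and 1.10 (0.242 to 4.10) for Cdc20. These intervals cover counting error only, not the spread between libraries, and are not adjusted for the number of genes. On SD, Ccnb1 and Cdc20 had 0 counts in the 3 knockouts, which allows up to 0.358 CPM (3 counts over the group), and no difference was detectable at this depth.

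Without Wee1, the summed level of the G2/M genes was 15.6, 27.3 and 18.3 CPM in SD controls and 16.3, 21.2 and 29.9 CPM in SD knockouts. HFD libraries stood at 30.2, 22.6, 19.0 and 12.5 CPM in controls and 64.5 and 25.7 CPM in knockouts. The groups overlapped on both diets. With Wee1 included, the ratio of the mean sums was 0.984 on SD and 1.48 on HFD, and the latter was 1.06 without HFD knockout 1 and 1.89 without HFD knockout 2.

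Other genes of the 3 phases were taken from wider lists. Of 34 further G1 genes 29 were tested, and 0 passed on SD or HFD with edgeR. At an unadjusted p under 0.05 were 4 on SD and 3 on HFD, beside 17.6% and 14.0% of all genes. Over both diets 1 fell, Mycl, a relative of Myc (-0.99, SE 0.29, adjusted p = 0.0465). Of 51 further S phase genes 41 were tested, and on SD the checkpoint kinase gene Chek1 rose (2.07, SE 0.56, adjusted p = 0.0495) and Tk1, which encodes thymidine kinase, fell (-1.53, SE 0.37, adjusted p = 0.0285). On HFD Prim1, a subunit of the primase that starts new DNA strands, rose (1.12, SE 0.28, adjusted p = 0.0403) and 0 fell. Over both diets 2 rose (Prim1 and Pola1, subunits of the same complex, at 0.92 and 0.81) and 2 fell, among them Tk1 (-1.08). Of 55 further G2/M genes 35 were tested: on SD Smc2, a condensin subunit, rose (1.69, SE 0.34, adjusted p = 0.00955), on HFD Anln, which encodes the cytokinesis protein anillin, rose (1.82, SE 0.43, adjusted p = 0.0333), and 0 fell on either diet. Over both diets Smc2 (1.16) and Anapc4 (0.40) rose and Pttg1, which encodes securin, fell (-0.54). At an unadjusted p under 0.05 by edgeR were 9 S phase and 3 G2/M genes of these lists on SD, and 7 and 9 on HFD. Of all tested genes, 1.44% rose and 2.94% fell on SD, 1.04% and 1.66% on HFD, and 3.00% and 5.36% over both diets. The medians of the 3 lists on SD were -0.07, 0.10 and 0.12, and on HFD -0.01, 0.11 and 0.24, beside 0.00 and -0.01 for all genes.

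Of 28 genes of growth signals, 20 were tested. On SD 2 fell and 0 rose: Cyr61, a target of YAP (-1.62, SE 0.35, adjusted p = 0.0149), and Met, the receptor of hepatocyte growth factor (-0.56, SE 0.12, adjusted p = 0.0163). On HFD Wwtr1, which encodes TAZ, rose (0.60, SE 0.15, adjusted p = 0.0489) and 0 fell. Of all tested genes, 1.44% rose and 2.94% fell on SD, and 1.04% and 1.66% on HFD. Over both diets 2 of the 20 rose and 2 fell, beside 3.00% and 5.36%. At an unadjusted p under 0.05 by edgeR were 3 on SD and 8 on HFD, beside 17.6% and 14.0% of all genes. Met was at 246 ± 38.1 CPM (n = 3) in SD controls and 167 ± 13.1 (n = 3) in SD knockouts, and at 197 ± 18.5 (n = 4) and 160 ± 6.48 (n = 2) on HFD.

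Markers of other liver cells were summed in the same libraries. Of 8 stellate cell markers 4 rose over both diets (Reln, Col1a2, Colec11 and Col3a1), beside 3.00% of all tested genes, and 0 passed on SD or HFD alone. The summed level of the 8 was 340 to 403 CPM in SD controls against 457 to 528 in SD knockouts, and 273 to 407 against 400 to 490 on HFD. The sum of 6 cholangiocyte markers was 51.4 to 53.8 CPM against 64.9 to 197 on SD and 27.5 to 105 against 88.4 to 100 on HFD, most of it Spp1, while Krt19 held 6 and 5 counts and Krt7 1 and 1 in SD controls and knockouts. The sum of 6 T cell markers was 2.34 to 4.42 against 5.99 to 7.99 CPM on SD and 4.15 to 13.7 against 10.1 to 10.7 on HFD. On SD that difference was in Cd4, with 11 counts in controls and 48 in knockouts, while Cd3e held 4 and 4, Cd3d 1 and 1, Cd3g 4 and 1, Cd8a 7 and 3 and Cd2 1 and 0. The sum of 5 B cell markers was lower in SD knockouts, at 0.33 to 4.80 against 5.46 to 7.63 CPM, and overlapped on HFD. The sum of 6 erythroid markers was 40.5 to 48.8 CPM in SD controls against 33.7 to 37.0, and overlapped on HFD. Of its 3 tested markers 1 was called lower on SD (Car1), beside 2.94% of all genes. None of the tested cholangiocyte, T cell or B cell markers passed in a knockout comparison with edgeR; over both diets 1 of each had an unadjusted p under 0.05. The sum of 8 Kupffer cell markers overlapped, at 215 to 335 against 230 to 307 CPM on SD and 160 to 387 against 271 to 294 on HFD. Their part in the values of Ccnd1, Cdkn2c, Mcm7 and Mki67 was not tested, and in whole liver a change in the number of cells of a type and a change in RNA per cell cannot be told apart.

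Of the 10 S phase genes, 4 rose on HFD in controls (Pcna, Tyms, Mcm5 and Mcm7), while in knockouts 2 rose (Pcna and Tyms) and 1 fell (Rrm2). Mcm5 held 6 and 10 summed counts in SD controls and knockouts against 88 and 46 on HFD. Birc5, called in knockouts, held 6 and 10 against 105 and 80. Both passed the filter on low counts through the HFD libraries, where they were high, so their rises are not independent of that filter. The counts of rising members that follow include these calls. In controls, 7 of 28 members rose on HFD and 2 fell, beside 16.5% and 13.6% of all tested genes (30.1% in either direction); in knockouts 5 rose and 2 fell, beside 14.9% and 11.7% (26.6%). Pcna was at 8.23 to 10.9 CPM in SD controls and 42.1 to 46.6 CPM in HFD controls, and at 7.19 to 9.74 and 33.7 to 48.3 CPM in knockouts. Its log2 fold change was 2.26 (SE 0.17, adjusted p = 6.79e-08 by edgeR) in controls and 2.32 (SE 0.19, adjusted p = 2.30e-07) in knockouts. Tyms was at 3.05 to 5.07 CPM in SD controls and 15.2 to 17.5 CPM in HFD controls, with 1.98 (SE 0.23) in controls and 2.05 (SE 0.24) in knockouts. The HFD libraries of both genes lay wholly above the SD libraries.

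E2f1 rose on HFD by 1.76 (SE 0.26, adjusted p = 0.000115 by edgeR) in controls and 1.38 (SE 0.29) in knockouts, and Cdk4 by 1.10 (SE 0.22) and 1.07 (SE 0.26). Ccnd3, the third D-type cyclin, rose in controls (1.44, SE 0.35, adjusted p = 0.00532) and was at 0.36 (adjusted p = 0.496) in knockouts. Mcm5 (1.75) and Mcm7 (0.73) rose in controls and were at 1.23 and 0.40 in knockouts. Cdk6 (-0.49, adjusted p = 0.0474) and Rb1 (-0.44, adjusted p = 0.0220) fell in controls. The Cdk6 call held under 8 of 19 alternatives (adjusted p up to 0.209), that of Rb1 under 14, Mcm7 under 16 and Mcm5 under 13, while those of Pcna, Tyms, E2f1 and Cdk4 in both genotypes and of Ccnd3 in controls held under all 19. Left out alone, each of the 3 SD controls ended the Rb1 and Mcm5 calls, as did HFD control 3 for Rb1 and HFD control 1 or 4 for Mcm5. The Mcm7 call was lost without SD control 1, and that of Cdk6 without SD control 1 or 3, any SD knockout, or HFD control 2, 3 or 4. Myc fell in knockouts, by 3.16 (SE 0.72, adjusted p = 0.00448), and was at -1.45 (adjusted p = 0.0926) in controls. Rrm2 also fell in knockouts, by 0.80 (adjusted p = 0.0495; held under 4 of 19 alternatives, with adjusted p up to 0.187, and when 1 library was left out only without SD control 3 or HFD control 4), and Birc5 rose there (2.05, SE 0.69, adjusted p = 0.0395; held under 13 of 18 alternatives, lost without SD knockout 1 or 2 or HFD knockout 1 or 2) and was at 1.96 (adjusted p = 0.0602) in controls. The controls gave -0.12 for Wee1, -0.21 for Top2a and -0.23 for Ccna2, none past the test. The difference between the diet effects of the 2 genotypes is the same contrast as the difference between the knockout effects of the 2 diets, which passed for 0 members.

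**Figure D5:**
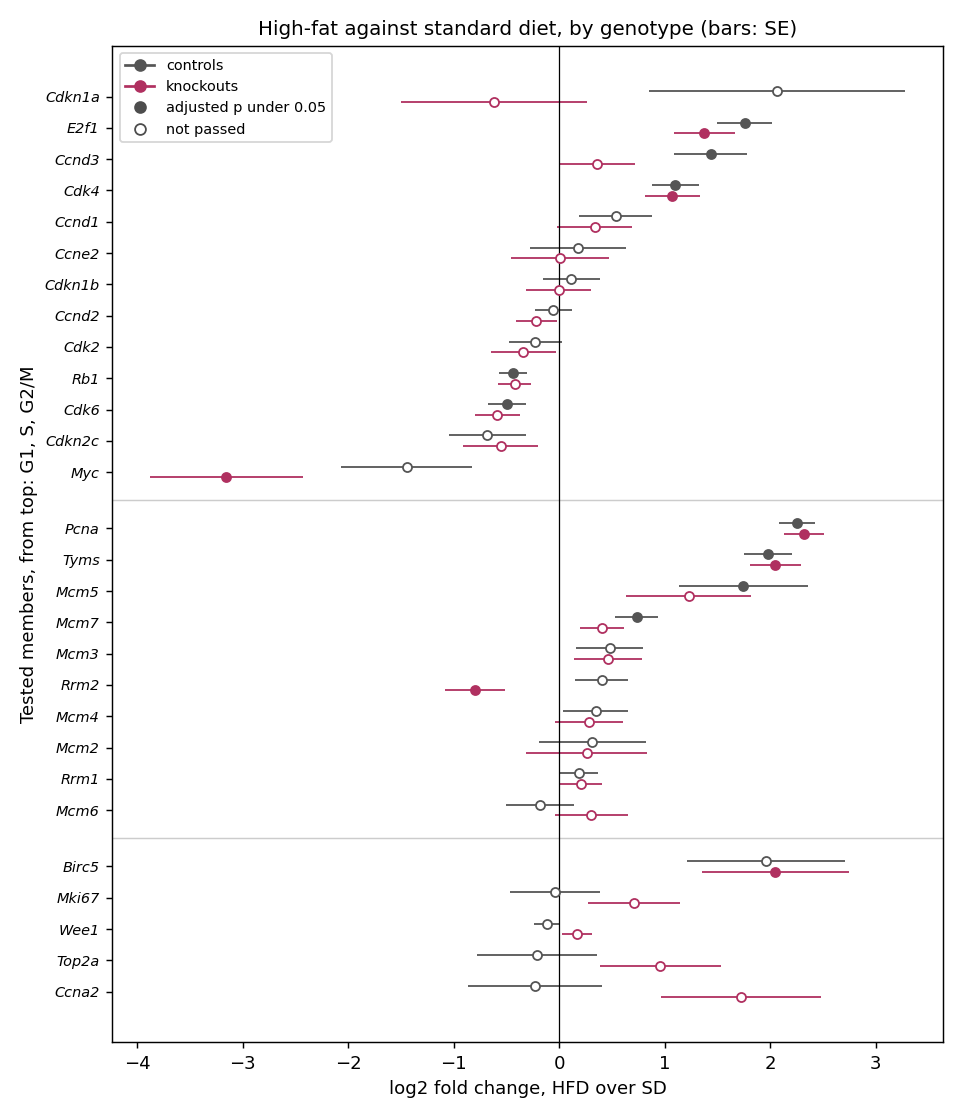
log2 fold change of HFD over SD (x axis) for the 28 tested genes (y axis; G1, S and G2/M from the top) in controls (grey) and knockouts (red), with bars of 1 SE and filled points where the edgeR test passed. Pcna and Tyms lie near 2 in both genotypes, and Myc is at -3.16 in knockouts.

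Of 35 wider G2/M genes tested, 10 rose and 1 fell on HFD in controls, beside 16.5% and 13.6% of all tested genes. In knockouts 11 rose and 0 fell, beside 14.9% and 11.7%. Genes near 0 on SD, such as Racgap1, passed the filter on low counts only through the HFD libraries, where they were high, so these counts are not independent of that filter. Racgap1, a regulator of cytokinesis, was at 0.637 ± 0.853 CPM (n = 3) in SD controls and 14.1 ± 1.25 (n = 4) in HFD controls, and at 0.742 ± 0.435 (n = 3) and 19.6 ± 3.72 (n = 2) in knockouts. Hmmr, which encodes a spindle-associated hyaluronan receptor, was at 0.337 ± 0.310 and 13.1 ± 1.51 CPM in controls. In the same libraries Mki67 was at 9.44 ± 2.18 and 9.05 ± 3.67 CPM, a log2 difference of -0.04 (adjusted p = 0.954). The SD and HFD libraries also differed throughout in depth, in the share of Rn45s, a ribosomal RNA precursor (0.291 to 0.460% against 0.985 to 1.32% of counts), and in the share of ribosomal protein genes (0.167 to 0.214% against 0.729 to 0.864%). Diet and these differences between the sets of libraries cannot be told apart.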

How the data were processed

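Per the labels, libraries were made from total liver RNA (Trizol) with the Nugen Ovation RNA-Seq System V2. The authors deposited unnormalized read counts per gene symbol, 1 table a library; the submitters' processing notes name TopHat2 2.1.0, HTSeq, DESeq2 1.14.1 and the mm9 build, the handling of strand and of multiply mapped reads being not given in the sources used here. Counts were analysed with edgeR 4.0.16 (R 4.3.3, TMM scaling, filterByExpr, 4 group means over 12 libraries, quasi-likelihood test, Benjamini-Hochberg over 12015 genes, threshold 0.05; common biological coefficient of variation 0.153). CPM uses TMM-scaled library sizes. The script was tested on simulated data. Groups came from the titles; nothing says whether libraries of a group are separate animals, so p-values reflect only library-to-library spread, which may be technical; HFD knockouts number 2. Intervals on summed counts are exact (Poisson, or conditional binomial for ratios) and cover counting error only.

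Members and lists were chosen with earlier results of these data known. Members chosen for description were Ccnd1, each member that passed in a knockout comparison and, per phase, the 4 with the smallest p over both diets. Each is given with its value in every library and its log2 fold change and adjusted p over both diets. The SE and the statistics of each diet alone are not given for all of them. For diet, the 4 members per phase with the smallest p in controls were taken. Per wider list, up to 3 genes that passed a knockout comparison are named. Alternatives were DESeq2 1.42.0, RLE scaling, library totals, no filter, only the compared groups, thinning, a replicate block and leaving out each library. Promoters and exon overlaps came from RefSeq (GRCm38.p6) and GENCODE, not the authors' build. Cdk3 and Ly6g are not analysed here. A further result of the wider S phase list is not reported here.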

Additional observations from a re-analysis of the deposited data

Results flagged for a closer look

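In groups of 4 libraries (the HFD controls; 32 members checked), a library far from the other 3 was looked for, and chance alone gives about 1 such case in 20. Cdkn1a was at 19.7 CPM in HFD control 1 and at 0.65 to 2.48 CPM in the other 3. Cdk4 was at 11.7 CPM in the same library and at 18.2 to 18.4 CPM in the others. Ccnb1 was at 0 CPM in HFD control 4 and at 0.87 to 1.00 CPM in the others, from 7 to 11 counts each.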

How the results depend on the processing

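With 1 member called on SD, the count was 3 without the filter on low counts (Ccnd1, Cdkn1a and Myc), 2 with only the groups compared, 2 after thinning, and 0 to 2 when 1 library was left out: 0 without SD control 1 or 3, SD knockout 2 or 3, HFD control 2 or 3, or HFD knockout 1, and 2 without HFD control 1 (Ccnd1 and Cdkn1a); without SD control 2 the 1 member called was Myc, not Ccnd1. With 0 members called on HFD, it was 3 without the filter, 1 after thinning (Ccnd1), and 0 to 4 leaving out 1 library: 4 without HFD control 1 (Ccnd1, Cdkn1a, Mki67 and Top2a) and 1 without HFD control 4 or HFD knockout 2. With 3 called over both diets, it was 5 without the filter, and 1 to 5 leaving out 1 library: 1 without SD control 3, SD knockout 3 or HFD knockout 1, and 5 without HFD control 1. Leaving out an HFD knockout leaves 1 library, assumed to vary like the other groups. The difference between diets gave 0 members under every alternative run. Some values without a call changed sign when 1 library was left out, and their ranges over the left-out libraries follow. On SD, Top2a ran from -0.039 (without SD knockout 3; -0.016 and -0.014 without SD control 1 and 3) to 0.93, and Birc5 from -0.96 (without SD knockout 3) to 1.71. On HFD, Cdkn1a ran from -0.048 (without HFD knockout 1) to 2.65 and Wee1 from -0.024 (without HFD knockout 1) to 0.38. Over both diets, Birc5 ran from -0.091 (without SD knockout 3) to 1.25 and Wee1 from -0.065 (without HFD knockout 1) to 0.14. The Ccnd1 difference between diets ran from -0.46 to 0.079 (without HFD control 1). In controls, HFD against SD, Top2a ran from -0.59 to 0.49 (without SD control 2; 0.023 without HFD control 4) and Ccna2 from -0.55 to 0.28 (without SD control 2). A fit of only the compared groups does not apply to the mean and the difference of the diets. The cause of these changes was not tested.

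Whether replicate numbers pair the libraries was not settled. Same-numbered controls and knockouts correlated at 0.047, 0.043 and -0.013 on SD and 0.12 and 0.0089 on HFD. With 2 HFD knockouts, the correlations of each HFD control with them are equal and opposite by construction, so they cannot show pairing. On SD, 2 of 3 controls and 2 of 3 knockouts correlated best with their own number. With the replicate number as a block, 3 members were called on SD (Ccnd1, Cdkn1a and Myc), 1 on HFD (Ccnd1) and 3 over both diets (Ccnd1, Cdkn1a and Myc).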
